A study of Mus musculus with 2 samples.

Results

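Macrophage lineage transcription factors were examined across adipose tissue macrophages (ATMs) in droplet single-cell RNA sequencing data. The set holds 9 genes, Spi1, Cebpa, Cebpb, Runx1, Maf, Mef2c, Irf4, Irf5 and Irf8, taken by symbol out of 31053 genes in the count tables. The rule uses no measured value, although the set was put together with earlier results of these data known. All 9 had unique molecular identifiers (UMIs, one per captured transcript) in both libraries. The study asked how an overnight high-fat diet (HFD) changed ATMs of lean mice, and sequenced 1 library per diet. Both groups were C57/BL6 male mice of 8 to 12 weeks (C57BL/6JOlaHsd in the study's methods), either kept on control diet (CD) or given HFD overnight. Each library held sorted cells pooled from the epididymal fat of 3 mice. The labels give the sorted cells as CD45+, lineage negative, low or negative for Ly6C, and F4/80+.

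Myeloid cells are built by a small set of DNA-binding proteins. PU.1 (encoded by Spi1) opens myeloid enhancers, C/EBP factors drive monocyte and inflammatory genes, and RUNX1 acts in blood stem cells and myeloid progenitors. MAF factors, MEF2C and the interferon regulatory factors (IRFs) are then used in different amounts by resident macrophages, monocytes and dendritic cells.

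After keeping barcodes with 200 to 3500 detected genes and at most 10% of UMIs from mitochondrial genes, 2364 of 4459 CD and 2021 of 3163 HFD barcodes remained. The median depth was 4490.5 UMIs per kept cell in CD and 2792 in HFD, so the HFD library was the shallower one. Of the barcodes, 14 occurred in both libraries and 7 of these were kept in both. All 15 genes of a core myeloid list (Csf1r, Itgam, Adgre1, Cd68 and others) had UMIs in each library, with a summed level of 18704 counts per 1000000 UMIs (CPM) in CD and 24829 CPM in HFD. Endothelial, T or NK, B cell and neutrophil lists each summed to at most 15.9 CPM. Stromal or adipocyte and peritoneal macrophage lists are not part of that statement. They are given below for groups of cells where they differed between libraries. With 1 pooled library per diet there is no replicate, so no p-value is given. Intervals are exact 95% intervals (Poisson for a level, conditional binomial for a ratio, Clopper-Pearson for a share) and cover counting error only.

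Cells were placed in 7 gates by their own UMIs, where + means at least 1 UMI. The Timd4+ gate (the phosphatidylserine receptor Tim4) held 368 CD and 72 HFD cells, the Lyve1+ gate (a hyaluronan receptor of resident macrophages) 1172 and 415, and the Folr2+Lyve1- gate (folate receptor beta) 872 and 581. The Ccr2+ gate (a chemokine receptor of monocytes and their progeny) held 1326 CD and 1131 HFD cells, and a gate of at least 10 UMIs of the lysozyme gene Lyz1, here called Lyz1-high, 555 and 672. The small gates, Plac8+ (a gene of monocytes) and Ccl17+ or Flt3+ (a chemokine and a receptor of dendritic cells), held 42 and 73 and then 42 and 41 cells. The gates overlap. Of the Lyz1-high cells, 95.7% in CD and 89.7% in HFD were also Ccr2+, and of the Lyve1+ cells 42.4% and 37.1% were also Ccr2+. A set of exclusive gates, in which each cell counts once, was used beside them. A gene was called where its CPM ratio reached 1.5-fold, with at least 50 UMIs in both libraries together, or 20 within a gate for HFD against CD.

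The 9 genes lie on GRCm38 (mm10) at chr2:91082390-91115756 (Spi1), chr7:35119293-35121928 (Cebpa), chr2:167688915-167690418 (Cebpb), chr16:92601466-92826149 (Runx1, minus strand), chr8:115682942-115707794 (Maf, minus strand), chr13:83504034-83667080 (Mef2c), chr13:30749226-30766976 (Irf4), chr6:29526625-29541871 (Irf5) and chr8:120736358-120756694 (Irf8). Those without a strand named are on the plus strand. Irf8 shares its strand and position with the model Gm20388, so some of its reads may not have been counted for Irf8. Cebpa, Cebpb, Irf5, Maf and Runx1 overlap genes on the opposite strand.

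Promoter sequence, the 250 bases before a RefSeq start on GRCm38.p6, was found for 7 of the 9 genes in 11 windows. The first windows of Cebpb (chr2:167688665-167688914), Irf8 (chr8:120736108-120736357) and Mef2c (chr13:83503784-83504033), all on the plus strand, are printed because these genes carry the differences between diets and gates described next. Capitals mark motif matches found on either strand.
Cebpb: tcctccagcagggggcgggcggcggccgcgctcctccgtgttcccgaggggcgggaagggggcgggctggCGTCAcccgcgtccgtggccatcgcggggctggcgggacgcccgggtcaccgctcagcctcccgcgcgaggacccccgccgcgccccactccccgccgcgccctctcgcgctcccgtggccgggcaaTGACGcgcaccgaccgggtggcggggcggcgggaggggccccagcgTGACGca
Irf8: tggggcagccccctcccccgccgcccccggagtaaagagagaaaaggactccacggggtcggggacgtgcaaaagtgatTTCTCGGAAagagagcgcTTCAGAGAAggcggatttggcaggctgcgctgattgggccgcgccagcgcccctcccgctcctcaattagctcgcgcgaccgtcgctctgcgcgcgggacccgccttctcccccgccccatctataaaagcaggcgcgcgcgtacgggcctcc
Mef2c: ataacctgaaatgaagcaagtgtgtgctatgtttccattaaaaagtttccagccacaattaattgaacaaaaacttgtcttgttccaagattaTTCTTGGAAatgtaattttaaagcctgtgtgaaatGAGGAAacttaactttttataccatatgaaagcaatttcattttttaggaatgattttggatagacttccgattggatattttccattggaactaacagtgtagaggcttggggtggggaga
In Cebpb the capitals are 3 copies of the cyclic AMP response half-site TGACG, at -180 (on the minus strand), -53 and -7 from the start, a motif that 17.8% of 32851 promoter windows of this length held. In Irf8 they are matches to the STAT-type motif TTCNNNGAA at -171 and -153, held by 7.02% of windows. Mef2c had 1 such match at -157 and the PU.1 motif GAGGAA at -122, the latter held by 23.3% of windows. C/EBP (TTGCNNAA, 9.56% of windows), interferon response element (2.98%), MEF2 (3.2%), MAF core (TGCTGA, 16.1%) and RUNX (TGTGGTTT, 1.49%) motifs had no match in the printed windows. A match here is a run of letters and not a measured site.

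Over all kept cells, Cebpb was the most abundant of the 9 transcripts in both libraries, at 666 CPM in CD and 1434 CPM in HFD. Maf and Spi1 followed at 415 and 330.0 CPM in CD and at 237 and 325 CPM in HFD. Mef2c, Irf5, Cebpa, Irf4, Irf8 and Runx1 lay between 59.1 and 200 CPM. These levels count 3' tags, which do not grow with transcript length. How completely each gene's tags were captured and assigned was not tested.

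Spi1, the PU.1 gene, was close to level across gates. Its lowest level was 289 CPM (Timd4+ in HFD) and its highest 439 CPM (Plac8+ in CD). In exclusive gates, each step from one gate to the next in order was within counting error. Gates further apart did differ in CD, where Spi1 had a log2 ratio of -0.25 [-0.34, -0.15] in Lyz1-high cells and 0.42 [0.15, 0.69] in Plac8+ cells over the cells outside. Cebpa, which commits progenitors to the granulocyte and monocyte line, ran from 67.0 CPM (Lyz1-high in HFD) to 89.2 CPM (Folr2+Lyve1- in CD). Its Lyz1-high level was below that of the other cells by a log2 ratio of -0.48 [-0.67, -0.29] in CD and -0.42 [-0.66, -0.19] in HFD, short of 1.5-fold. Runx1 was also lower in Lyz1-high cells, at 52.7 CPM in CD and 56.1 CPM in HFD. Its log2 ratios against the cells outside were -0.51 [-0.73, -0.30] and -0.63 [-0.88, -0.39], past 1.5-fold in HFD alone. Runx1 passed there in both libraries under some alternatives, among them thinning and averaging per cell. Irf4, a factor of alternatively activated macrophages and dendritic cells, ran from 40.3 CPM (Plac8+ in CD, 11 UMIs) to 114 CPM (Ccl17+ or Flt3+ in HFD, 32 UMIs), and most of its intervals overlapped.

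**Figure D1:**
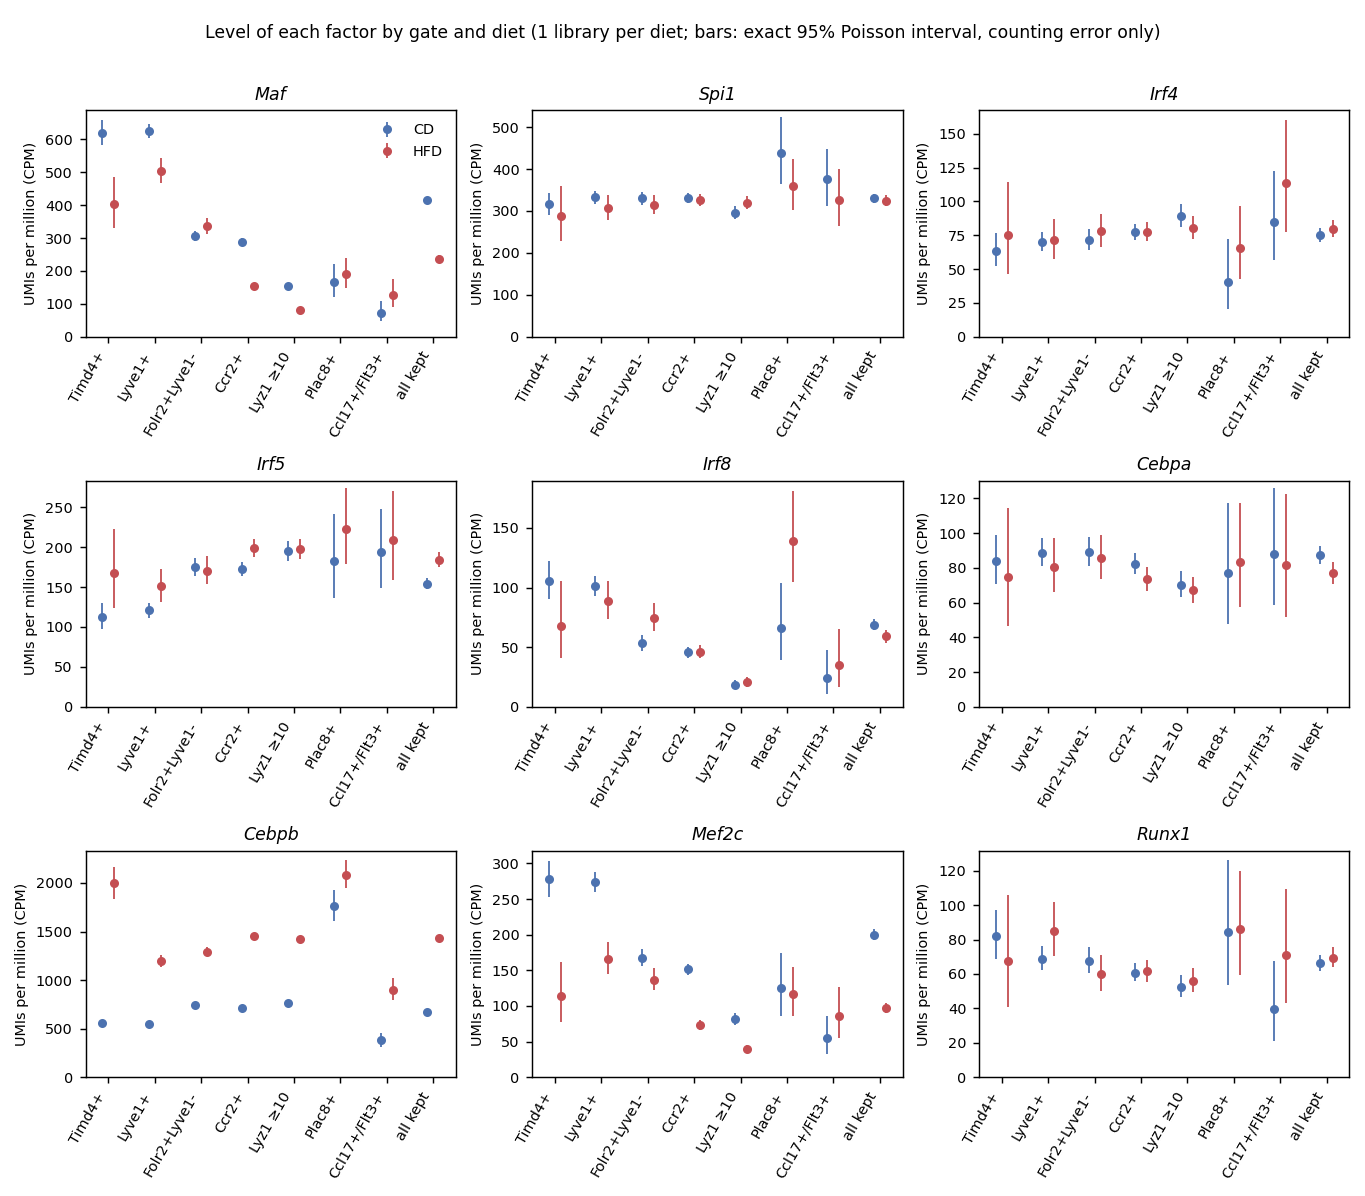
Level of each of the 9 factors in CPM (linear axis from 0) in the 7 overlapping gates and in all kept cells, with CD in blue and HFD in red and bars for the exact 95% Poisson interval. Maf, Mef2c and Irf8 are lower in the Lyz1 gate than in the Timd4+ and Lyve1+ gates, Spi1 stays between 289 and 439 CPM, and Cebpb is higher in HFD in each of the 7 gates.

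Maf, Mef2c and Irf8 were higher in the Lyve1+ gate than in the Ccr2+ and Lyz1-high gates. Maf (c-MAF, a factor of resident macrophage programmes) stood at 625 CPM [604, 646] in CD and 505 CPM [468, 544] in HFD in Lyve1+ cells. In Lyz1-high cells it stood at 153 CPM [142, 164] and 81.0 CPM [72.9, 89.6]. Maf was thus highest in the Lyve1+ and Timd4+ gates of each library and low in Lyz1-high cells. Mef2c, a MADS-box factor of muscle and blood cells, was at 273 CPM in CD and 166 CPM in HFD in Lyve1+ cells, against 81.5 and 39.2 CPM in Lyz1-high cells. Irf8, which is needed for monocytes and type 1 conventional dendritic cells, was at 101 and 88.6 CPM in Lyve1+ cells, against 18.5 and 20.5 CPM in Lyz1-high cells. All 3 genes had non-overlapping intervals between the Lyve1+ and Lyz1-high gates in both libraries. Timd4+ cells of HFD had Irf8 at 67.8 CPM [40.8, 106] on 19 UMIs, which overlapped Ccr2+ cells at 46.3 CPM [41.1, 52.0]. For Irf8 in HFD the highest gate was not a resident one but Plac8+, at 139 CPM [105, 181] against 88.6 CPM [73.6, 106] in Lyve1+ cells.

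Each gate was then compared with the kept cells outside it, and a member was counted where it passed 1.5-fold in the same direction in both libraries. In the Lyve1+ gate 3 members were higher, Maf, Irf8 and Mef2c, where 8.75% of the 9922 genes tested were higher, and 0 were lower (4.29% of genes). The log2 ratios were 1.31 [1.23, 1.40] in CD and 1.47 [1.33, 1.61] in HFD for Maf, 1.20 and 0.74 for Irf8, and 0.94 and 1.01 for Mef2c. In the Lyz1-high gate the same 3 members were lower, where 17.9% of genes were lower, and 0 were higher (4.33%). There the log2 ratios were -1.93 [-2.04, -1.81] and -2.45 [-2.62, -2.29] for Maf, -2.45 and -2.43 for Irf8, and -1.75 and -2.14 for Mef2c. In the Ccr2+ gate these 3 were again lower (14.3% of genes) and 0 were higher (5.09%), with Maf at -1.31 and -1.73. Most Lyz1-high cells were also Ccr2+, so these calls share cells. The 3 Ccr2+ calls were lost with exclusive gates. Mef2c in Lyve1+ cells was lost when cells were thinned to 1000 UMIs and gated again, and Irf8 there when averaged per cell.

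The remaining gates gave 0 to 3 calls each. In Timd4+ cells 1 member, Maf, was higher (5.79% of genes), at log2 ratios of 0.69 and 0.80, and 0 were lower (4.14%). Irf8 and Mef2c had Timd4+ ratios of 0.74 and 0.57 in CD. In HFD they were at 0.20 [-0.54, 0.86] and 0.25 [-0.31, 0.76]. In the Ccl17+ or Flt3+ gate 0 members were higher (3.89% of genes) and 3 were lower (14.8% of genes), Maf at -2.54 and -0.92, Irf8 at -1.53 and -0.76 on only 8 and 10 UMIs, and Cebpb at -0.83 and -0.69. The Plac8+ gate gave 0 higher (4.56% of genes) and 0 lower (9.72%), although Cebpb came near at 1.46 in CD and 0.58 in HFD. Cebpb did pass there under some alternatives, among them exclusive gates and averaging per cell. The Folr2+Lyve1- gate gave 0 higher (0.423% of genes) and 0 lower (0.675%). There Maf ran in opposite directions, at -0.67 in CD and 0.75 in HFD, while its level in the gate was 307 CPM in CD and 337 CPM in HFD. What moved was the level outside this gate, 488 CPM in CD and 200 CPM in HFD.

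**Figure D2:**
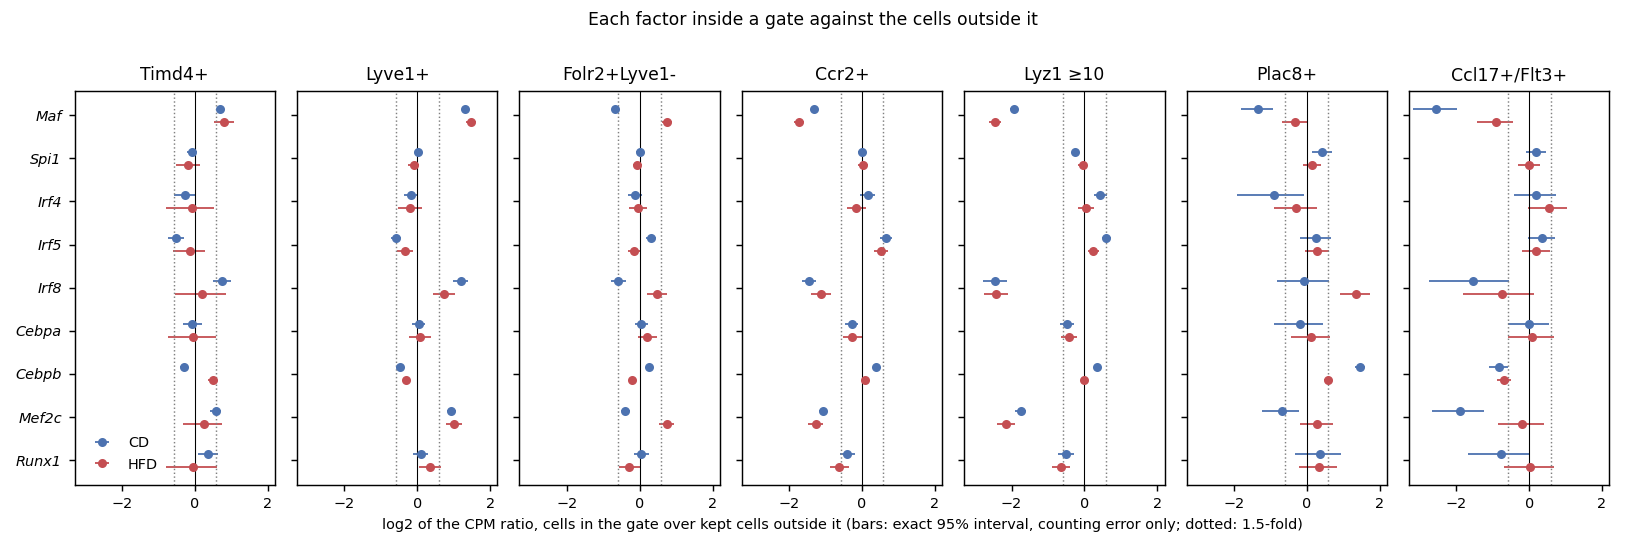
Log2 of the CPM ratio of each factor in a gate over the kept cells outside it (x axis), for 7 overlapping gates (panels), with CD in blue, HFD in red, bars for the exact 95% interval and dotted lines at 1.5-fold. Maf, Irf8 and Mef2c sit to the right in Lyve1+ cells and to the left in the Ccr2+ and Lyz1 gates in both libraries.

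Irf5, a factor of inflammatory macrophage activation, had the opposite slope. It was at 121 CPM in CD and 151 CPM in HFD in Lyve1+ cells, and at 195 and 197 CPM in Lyz1-high cells. Its log2 ratio in the Ccr2+ gate was 0.65 [0.49, 0.81] in CD and 0.52 [0.33, 0.72] in HFD, past 1.5-fold in CD alone. Over the 14 points given by 7 exclusive gates in 2 libraries, Pearson's r of log2(CPM + 1) between Irf5 and Maf was -0.84, and between Maf and Mef2c 0.93. Irf8 had r = 0.80 with Mef2c and 0.79 with Maf. These r describe 14 points that share 2 libraries and their depths, and carry no test.

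With exclusive gates the order of levels became sharper for Maf. In CD it ran from Lyve1+ (728 CPM) to Timd4+ (673), Folr2+Lyve1- (489), Plac8+ (165), Lyz1-high (155), Ccr2+ (138) and Ccl17+ or Flt3+ (72.7), and from Plac8+ to Lyz1-high and on to Ccr2+ the steps were within counting error. In HFD the first 3 gates kept that order, at 677, 575 and 515 CPM, but neighbours among them did not differ beyond counting error, and Lyz1-high was last at 81.9 CPM. Irf8 was highest in Lyve1+ cells in CD (120.0 CPM, against 119 CPM in Timd4+ cells) and in Plac8+ cells in HFD (157 CPM, against 117 CPM in Lyve1+ cells), and lowest in Lyz1-high cells of both (18.1 and 19.9 CPM). At both ends of this order, the step to the next gate was within counting error in each library. Mef2c had its highest levels in the same 3 gates as Maf, with 317 CPM in CD and 225 CPM in HFD in Lyve1+ cells and 82.8 and 37.7 CPM in Lyz1-high cells. In HFD its Timd4+ level, 147 CPM on 25 UMIs, was within counting error of the Plac8+ level of 116 CPM. The exclusive Ccr2+ gate, which holds the Ccr2+ cells left after all other gates, gave 3.37% of CD and 9.24% of HFD UMIs. Its Irf8, Mef2c and Runx1 log2 ratios in HFD were 0.63, 0.08 and 0.15, opposite to those of the overlapping gate.

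Within the Ccr2+ gate, cells with and without a Folr2 UMI had different levels of these 3 factors. Maf was at 350.1 CPM in CD and 280 CPM in HFD in Ccr2+Folr2+ cells, against 94.1 and 90.6 CPM in Ccr2+Folr2- cells, log2 ratios of 1.89 [1.68, 2.11] and 1.63 [1.44, 1.82]. Mef2c was at 176 and 122 CPM against 71.0 and 48.1 CPM. Irf8 was at 54.8 and 68.7 CPM against 16.4 and 35.3 CPM. Each was higher on the Folr2+ side in both libraries, with no overlap of intervals. Cebpb did not share this split, at 695 and 1342 CPM against 780 and 1503 CPM. The same split held in Lyz1-high cells for Maf, at 186 and 146 CPM with Folr2 and 80.1 and 58.4 CPM without. The numbers of these cells differed between libraries, since 365 of 555 Lyz1-high cells were Folr2+ in CD and 159 of 672 in HFD. In Lyve1+ cells the presence of a Ccr2 UMI went with less Maf, at 777 and 725 CPM without Ccr2 and 498 and 339 CPM with it.

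**Figure D3:**
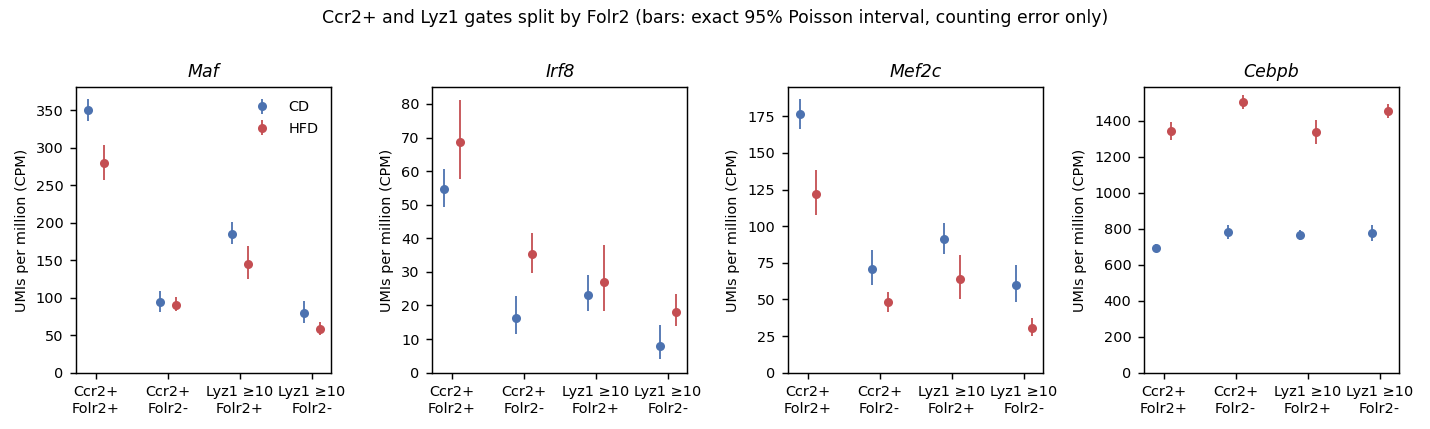
CPM (linear axis from 0) of Maf, Irf8, Mef2c and Cebpb in Ccr2+ and Lyz1 cells split by Folr2, with CD in blue, HFD in red and bars for the exact 95% Poisson interval. Maf in Ccr2+ cells falls from 350.1 and 280 CPM with Folr2 to 94.1 and 90.6 CPM without, whereas Cebpb separates by diet and hardly by Folr2.

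HFD was then compared with CD. Over all kept cells, Cebpb was higher in HFD, at 1434 against 666 CPM, a log2 ratio of 1.11 [1.06, 1.15]. Maf and Mef2c were lower in HFD, at 237 against 415 CPM (-0.81 [-0.88, -0.73]) and at 96.8 against 200 CPM (-1.04 [-1.16, -0.93]). So 1 member passed 1.5-fold upward, where 4.69% of the 9922 genes did, and 2 downward, where 8.95% did. The other 6 stayed within 1.5-fold, from -0.22 [-0.39, -0.06] for Irf8 to 0.26 [0.16, 0.36] for Irf5, and Spi1 was at -0.02 [-0.09, 0.05]. After thinning each cell to 1000 UMIs the Maf ratio was -0.51, under 1.5-fold, and the Mef2c ratio -0.76. The median log2 ratio of all genes tested was -0.02.

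In a sum over all cells, a different mix of cells and a different level per cell cannot be told apart. The gate shares did differ: in the exclusive gates Timd4+ and Lyve1+ cells gave 11.3% and 24.8% of UMIs in CD but 2.11% and 10.0% in HFD, and Lyz1-high cells gave 37.3% and 53.5%. A gate needs UMIs of its gene, so these shares also depend on depth, which was lower in HFD. Cells in no gate were 1.78% of CD and 13.3% of HFD cells, with medians of 1318 and 1017 UMIs. How much of the shift in shares comes from depth was not tested. Weighting the HFD gates by the CD shares of UMIs moved Maf from 237 to 371 CPM and its log2 ratio to -0.16. Mef2c moved to 132 CPM and -0.60, just past 1.5-fold, and Cebpb stayed at 1378 CPM and 1.05. Irf8 turned from -0.22 to 0.12. This weighting was added after the levels had been seen.

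Within gates, Cebpb, an inducible factor of the acute phase and of inflammatory macrophage genes, was higher in HFD in each of the 7 gates and past 1.5-fold in all but Plac8+. In Lyve1+ cells it was at 550.2 CPM in CD and 1197 CPM in HFD, a log2 ratio of 1.12 [1.03, 1.21]. In Ccr2+ and Lyz1-high cells it was at 715 and 767 CPM in CD and at 1450 and 1423 CPM in HFD, ratios of 1.02 and 0.89. Cebpb was thus higher in HFD in the resident and the monocyte-derived gates alike. Folr2+Lyve1- cells gave 0.81 and Ccl17+ or Flt3+ cells 1.25. In Plac8+ cells, where the CD level was already 1765 CPM, the HFD level was 2087 CPM and the ratio 0.24 [0.08, 0.41].

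The largest Cebpb ratio was in Timd4+ cells, 555 CPM in CD and 1997 CPM in HFD, a log2 ratio of 1.85. The cells in this gate were a different mix in each library. Of them, 77.7% in CD and 38.9% in HFD were also Lyve1+, and 8.70% and 16.7% also Lyz1-high. The exclusive Timd4+ gate leaves out cells that are also Lyz1-high, Plac8+, or Ccl17+ or Flt3+. Its ratios were 1.93 for Cebpb, -0.23 [-0.54, 0.07] for Maf and -0.10 [-0.86, 0.59] for Irf8, the last 2 under 1.5-fold. How the Lyve1+ part of the mix bears on the diet ratios of the gate was not tested. Markers of peritoneal macrophages (Gata6, Icam2, Alox15 and others) also differed in this gate, with a summed level of 83.3 CPM in CD and 731 CPM in HFD, and all 6 of the list had UMIs in both. Without the 4 CD and 5 HFD cells that held at least 3 UMIs of that list, Cebpb was at 513 and 1328 CPM, a ratio of 1.37 [1.18, 1.56]. The Maf ratio in this gate was -0.62 [-0.91, -0.34] with those cells and -0.42 without them, and the Irf8 ratio -0.64 and -0.42, so neither passed 1.5-fold without them.

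Immediate early and heat shock genes can be induced while tissue is digested, and the summed level of 16 such genes was 23090 CPM in CD and 24538 CPM in HFD over all kept cells. In Lyve1+ cells the sum was 25305 and 28842 CPM, and in Lyz1-high cells 18295 and 20018 CPM. Of the 16, Hspa1a and Hspa1b passed 1.5-fold upward in HFD in each of the 7 gates, and none passed downward. Hspa1a was at 361 CPM in CD and 591 CPM in HFD over all kept cells. The paper also reports Hspa1a as raised by HFD in its resident Lyve1+Tim4+ cluster, and more HSP70 protein in Tim4+ ATMs by flow cytometry. Whether digestion or diet lay behind these genes here was not tested, nor was their part in the Cebpb difference.

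Mef2c was lower in HFD in 4 of the gates past 1.5-fold. Its levels were 278 and 114 CPM in Timd4+ cells, 273 and 166 CPM in Lyve1+ cells, 151 and 72.5 CPM in Ccr2+ cells and 81.5 and 39.2 CPM in Lyz1-high cells, CD first. The log2 ratios were -1.28 [-1.85, -0.77], -0.72 [-0.92, -0.52], -1.06 [-1.22, -0.90] and -1.06 [-1.32, -0.80]. Folr2+Lyve1- cells had a smaller difference of -0.30 [-0.49, -0.10], at 168 and 137 CPM. In Lyve1+ cells the direction turned when cells were thinned to equal depth and gated again (0.13, from 180 and 70 UMIs). That gate then held 622 CD and 221 HFD cells. With exclusive gates the Lyve1+ ratio was -0.49. In Ccr2+ cells the ratio was -0.09 with exclusive gates, and it was -0.53 in Ccr2+Folr2+ and -0.56 in Ccr2+Folr2- cells, each under 1.5-fold. The Lyz1-high ratio was -1.13 with exclusive gates and -0.33 after thinning and gating again, on 6 and 9 UMIs. Other gates kept the lower Mef2c in HFD after thinning and gating again. The Ccr2+ ratio was then -0.62 [-1.05, -0.20] and the Folr2+Lyve1- ratio -0.62, both past 1.5-fold. The Timd4+ ratio was then -1.29 [-3.63, 0.37], on 37 and 3 UMIs. With exclusive gates it was -1.07 [-1.71, -0.49] in Timd4+ and -0.37 in Folr2+Lyve1- cells.

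Maf was lower in HFD past 1.5-fold in 3 gates. Ccr2+ cells had 289 CPM in CD and 153 CPM in HFD, a ratio of -0.92 [-1.03, -0.81], and Lyz1-high cells had 153 and 81.0 CPM, also -0.92 [-1.10, -0.73]. Timd4+ cells had 619 and 403 CPM. With exclusive gates the Ccr2+ ratio was 0.38, the Timd4+ ratio -0.23 and the Lyz1-high ratio -0.92. With cells thinned and gated again, the Timd4+ and Lyz1-high ratios were 0.07 and 0.09, the latter on 4 and 8 UMIs. The Ccr2+ ratio was then -0.59 [-0.88, -0.30]. Gating again left 146 CD and 275 HFD cells in the Lyz1-high gate, of 555 and 672 before, so the cells compared are not the same. Shares in the gates set before thinning are given below. Split by Folr2, the Ccr2+ ratio was -0.32 [-0.46, -0.19] in Ccr2+Folr2+ cells and -0.06 [-0.31, 0.20] in Ccr2+Folr2- cells. Of the Ccr2+ cells, 1024 were Folr2+ in CD and 390 in HFD. A Folr2 UMI also depends on depth, at a median of 5928.5 UMIs per Ccr2+ cell in CD and 4965 in HFD. The part of the Folr2+ share in the Ccr2+ difference was not tested. In Lyz1-high cells the difference was -0.35 with Folr2 and -0.46 without. Lyve1+ cells differed less, at 625 and 505 CPM (-0.31 [-0.43, -0.19]), and those without Ccr2 at 777 and 725 CPM (-0.10 [-0.25, 0.05]).

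Members past 1.5-fold in HFD against CD were also counted per gate, with the share over all genes beside each count. With at most 9 members these counts are small and are not read as a difference between gates. In Timd4+ cells 1 of 9 was higher (12.4% of the 7218 genes tested) and 3 were lower (22.3%), Maf, Irf8 and Mef2c, with an interval of -1.40 to 0.05 for Irf8. In Lyve1+ cells 1 was higher (9.38% of genes) and 1 lower (11.8%), and in Folr2+Lyve1- cells 1 was higher (9.7%) and 0 lower (8.83%). In Ccr2+ cells 1 was higher (5.43%) and 2 lower (11.1%), and in Lyz1-high cells 1 was higher (6.88%) and 2 lower (8.3%). In Plac8+ cells 2 were higher (13.6%), Irf4 and Irf8, and 0 lower (13.7%), and the Irf4 interval ran from -0.36 to 1.87. In the Ccl17+ or Flt3+ gate 4 of 8 with enough UMIs were higher (14.1%), Maf, Cebpb, Mef2c and Runx1, and 0 lower (13.1%), and of these Mef2c and Runx1 had intervals that included 0. Without cells holding endothelial, T, B or neutrophil markers, Maf and Mef2c in this gate were at 0.57 and 0.36, under 1.5-fold.

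**Figure D4:**
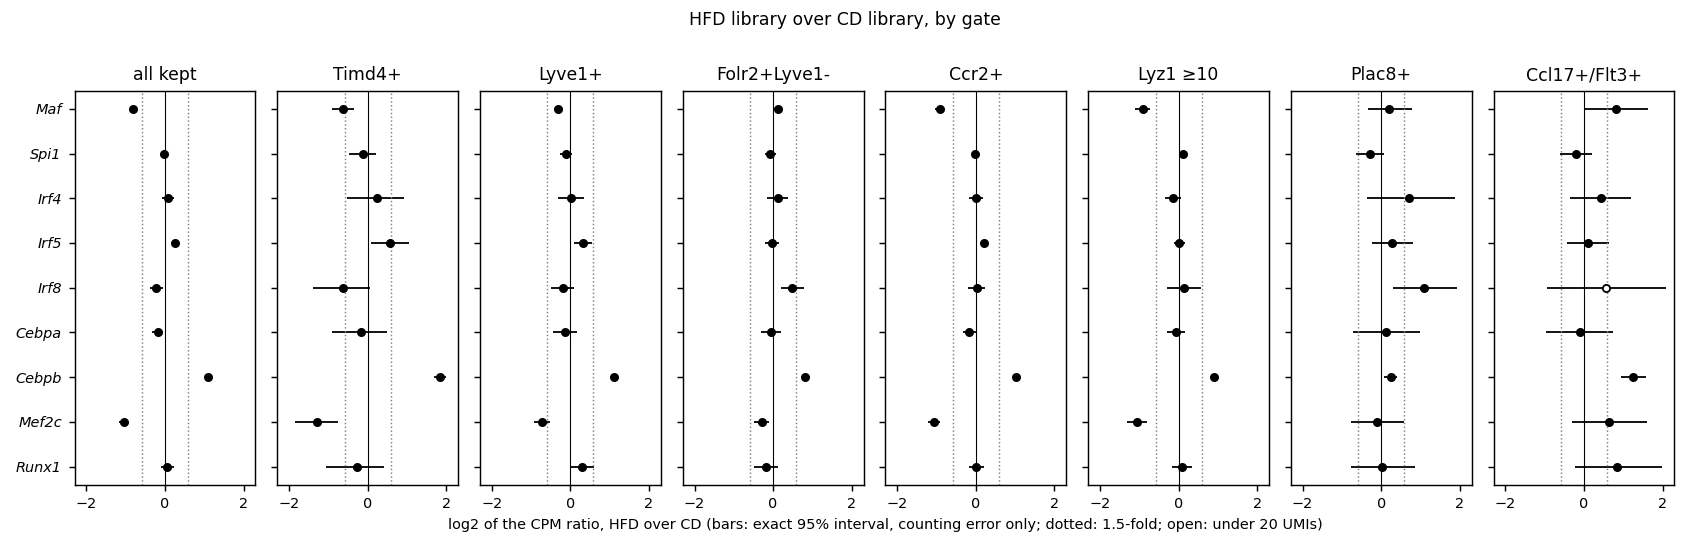
Log2 of the CPM ratio of the HFD over the CD library for each factor (x axis) by gate (panels), with bars for the exact 95% interval, dotted lines at 1.5-fold and open points under 20 UMIs. Cebpb lies to the right of 0 in each of the 7 gates, from 0.24 in Plac8+ to 1.85 in Timd4+ cells, and Spi1 lies near 0.

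In Plac8+ cells Irf8 was at 65.9 CPM in CD (18 UMIs) and 139 CPM in HFD (55 UMIs), a ratio of 1.08 [0.29, 1.93]. Most of these UMIs came from the Plac8+ cells with fewer than 10 Lyz1 UMIs, which numbered 31 in CD and had 88.3 CPM (16 UMIs), and numbered 54 in HFD and had 205 CPM (49 UMIs). The same cells had the highest Cebpb of any split, at 2108 CPM in CD and 2641 CPM in HFD, against 1088 and 1241 CPM in Plac8+Lyz1-high cells. The makeup of this gate differed between libraries. Ly6c2, a marker of classical monocytes, was at 472 CPM in CD and 162 CPM in HFD, and 8 stromal or adipocyte genes summed to 2025 CPM in CD and 10.1 CPM in HFD. Without the 2 CD cells holding at least 3 UMIs of those genes, Irf8 was at 68.5 and 139 CPM (1.02 [0.23, 1.88]). Higher Irf8 in HFD was not particular to Plac8+ cells. Ccr2+Folr2- cells had 16.4 CPM in CD and 35.3 CPM in HFD (1.10 [0.56, 1.69]). Exclusive Ccr2+ cells had 36.2 and 87.0 CPM (1.27 [0.44, 2.18]). The overlapping Ccr2+ gate was level, at 0.02 [-0.20, 0.24], and Timd4+ cells were at -0.64 [-1.40, 0.05].

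The Ccl17+ or Flt3+ gate rested on 42 and 41 cells. Maf was at 72.7 CPM in CD (24 UMIs) and 128 CPM in HFD (36 UMIs), and Irf8 at 24.2 CPM (8 UMIs) and 35.5 CPM (10 UMIs). Cd209a was at 600 and 617 CPM there. The paper lists that gene both for dendritic cells and among genes higher in resident macrophages, so by itself it does not mark these cells as dendritic. Xcr1 of type 1 conventional dendritic cells was at 0, and T or NK genes summed to 78.8 CPM in CD and 7.10 CPM in HFD. A further split by Trem2 and Cd9, genes of lipid-associated macrophages, gave 48 CD and 32 HFD cells. Cebpb was at 821 and 2011 CPM in them, and Maf at 213 CPM (84 UMIs) and 45.9 CPM (11 UMIs).

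Shares of cells with a UMI were compared after thinning each cell to 1000 UMIs, which left 2312 CD and 1754 HFD cells and dropped 52 and 267. The gates in these shares were set before thinning. Cebpb was then found in 41.0% of CD and 65.7% of HFD cells (78.6% and 84.1% without thinning). Maf was found in 38.9% and 27.1% (73.8% and 46.1% without thinning) and Mef2c in 21.6% and 13.3% (56.3% and 28.4%). In Lyve1+ cells Maf was found in 50.4% and 45.5%, and in Lyz1-high cells in 14.4% and 5.84%. Irf8 was found in 11.3% and 10.7% of Lyve1+ and in 1.98% and 2.40% of Lyz1-high cells. The shares kept the order of the CPM levels for these genes. As a cell type that should lack most of these factors, cells with endothelial markers numbered 8 in CD and 4 in HFD (median 4517 and 779.5 UMIs). Of the 7 CD cells deep enough to thin, Maf was found in 14.3%, Irf8 in 14.3% and Cebpb in 28.6%, and Mef2c, which endothelial cells also use, in 42.9%. The interval of the Irf8 share ran from 0.361% to 57.9%, so these few cells set no usable background level.

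Family members of the 9 factors were read from a list of 40 related lineage factors, of which 36 had the 50 UMIs needed for a ratio. In Lyve1+ cells 9 were higher (8.75% of all genes tested) and 4 lower (4.29%) than outside in both libraries. The median log2 ratio in CD was 0.13. In Lyz1-high cells 5 were higher (4.33% of all genes) and 15 lower (17.9%), with a median of -0.38 in CD. Mef2a followed Mef2c across gates, at 124 CPM in CD and 144 CPM in HFD in Lyve1+ cells against 60.3 and 64.0 CPM in Lyz1-high cells, and was at 94.4 and 97.7 CPM over all kept cells. Cebpd ran with the resident gates (155 and 125 CPM in Lyve1+, 59.4 and 51.4 CPM in Lyz1-high cells), whereas Cebpe, a granulocyte factor, ran the other way (15.1 and 16.7 CPM against 77.9 and 42.4 CPM). Runx3 was at 4.66 and 7.99 CPM against 15.1 and 22.8 CPM.

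Among the other IRFs, Irf1 and Irf2 differed by less than 1.5-fold between the Lyve1+ and Lyz1-high gates in both libraries. Irf7, an interferon-induced member, was at 278 CPM in CD and 121 CPM in HFD in Plac8+ cells, against 15.2 CPM in all kept cells of each library. Outside these families, among the listed factors with at least 100 UMIs, the 5 that differed most between Lyz1-high and Lyve1+ cells were Spic (9.12 and 13.8 CPM in Lyve1+ cells, 1.47 and 0.87 CPM in Lyz1-high cells), Tfec, Tcf4, Id2 and Bhlhe40. Tcf4 was at 182 and 174 CPM in Lyve1+ cells and at 38.2 and 30.9 CPM in Lyz1-high cells. Id2, an inhibitor of helix-loop-helix factors, was at 58.7 and 108 CPM in Lyve1+ cells and at 227 and 299 CPM in Lyz1-high cells. For HFD against CD over all kept cells, 4 of the 36 were higher (Runx3, Id2, Id3, Nr1h3), where 4.69% of all genes were, and 4 lower (Cebpd, Zbtb46, Bhlhe41, Nfia), where 8.95% were, with a median of -0.03. Of the 15 core myeloid genes, Mpeg1 was higher and Csf1r lower in HFD, with a median of 0.14.

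The genes most like each factor over the 14 exclusive points were taken from 4304 genes with at least 500 UMIs. For Maf they were Dab2 (r = 0.99), Serinc3 (0.98) and Ehd4 (0.98), and for Mef2c Ighm (0.97), Selenbp1 (0.96) and Nrp1 (0.95). Irf8 was most like Peli1, Lgmn and Stard5 (each 0.93). Irf5 was most like Pde4b (0.98), Dusp5 (0.95) and Glrx (0.95), and Cebpb most like the inflammasome sensor gene Nlrp3 (0.93), Fam111a (0.88) and Frrs1 (0.87). The highest r was lower for the other 4 factors: Spi1 with Ptma (0.89), Psmb9 (0.86) and 2310022A10Rik (0.84), Cebpa with Atf3 (0.85), Tbc1d5 (0.82) and Cd68 (0.80), Runx1 with Sgk3 (0.89), Lrrc25 (0.88) and Ppp1r15b (0.86), and Irf4 with Blnk (0.87), Baiap2 (0.85) and Gar1 (0.85).

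**Figure D5:**
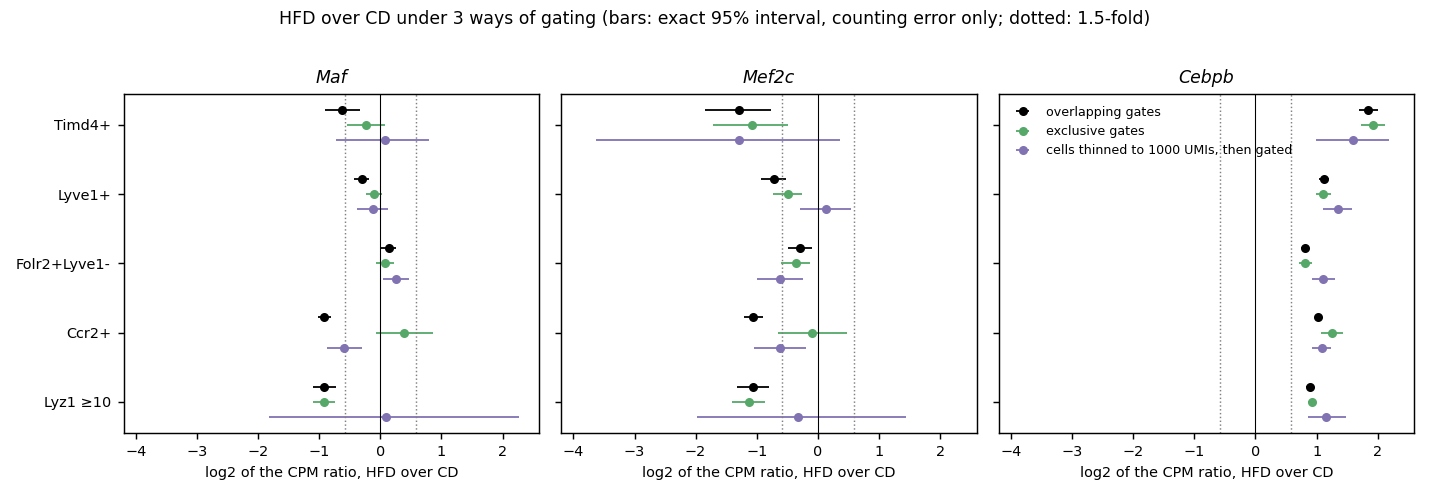
Log2 of the CPM ratio of the HFD over the CD library (x axis) for Maf, Mef2c and Cebpb in 5 gates (y axis), with overlapping gates in black, exclusive gates in green and cells thinned to 1000 UMIs and gated again in purple, bars for the exact 95% interval and dotted lines at 1.5-fold. Cebpb stays right of 1.5-fold in each of the 5 gates under each way of gating, whereas Maf in Ccr2+ cells lies at -0.92, 0.38 and -0.59.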

How the data were processed

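Sorted cells from the epididymal fat of 3 CD and 3 HFD mice, pooled per diet, were sequenced as 1 library each (10x Genomics 3' V2). The deposited values are raw UMI counts per gene and barcode, which the authors made with Cell Ranger 3.0.2 (mm10) per the labels. CD held 15003119 UMIs (12284010 in kept cells) and HFD 9164686 (8086475). Doublets were left in, and an alternative removed the highest-scoring barcodes. Intervals used scipy 1.17.1, tables pandas 2.3.3, doublet scores scanpy 1.11.5 and figures matplotlib 3.10.9, all run under Python 3.11.15 and numpy 2.4.6. UMIs were summed per gate and library and divided by the gate's total. Ratios were not tested, because cells are not replicates. Scripts were checked on simulated counts. Named genes were the 9 members, the related family members and 5 further related factors, and the 3 genes most like each member. Some of the family members are not reported here. The members, gates and lists were chosen with earlier results of these data known. Alternatives varied cell filters, gating, depth, scaling, UMI minimums and the left-out cells. Promoters came from a table made from RefSeq, and those of Maf and Spi1 were not used here. The methods name a CD11b gate where the labels name Ly6C.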

Additional observations from a re-analysis of the deposited data

How the results depend on the processing

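Leaving out a replicate was not possible with 1 library per diet. No paired analysis was possible because each diet has a single library and no test was made. Under 14 alternatives and those added after seeing the data, 2378 of 2647 member values stayed within their main interval, 260 moved and 9 that were past 1.5-fold turned direction. Values under 1.5-fold that changed sign are not among those 9. Other UMI minimums change only which values are called, so the 198 values of each such setting could not move. Thinning and gating again left 71 of 181 values the same, and 13 of the 53 past 1.5-fold. Averaging per cell left 150 of 198 the same, and 33 of the 63 past 1.5-fold. The count over all kept cells was 3 and became 2, without Maf, when cells were thinned to 1000 UMIs or averaged per cell. The 13 calls of gates over outside ranged from 11 to 18. Thinning and gating again kept 9 of the 13, without Mef2c in Lyve1+, Maf in Timd4+, and Irf8 and Mef2c in Ccr2+ cells. Exclusive gates kept 10 and lost Maf, Irf8 and Mef2c in Ccr2+ cells. Averaging per cell also kept 10 and lost Irf8 in Lyve1+, Maf in Timd4+ and Cebpb in Ccl17+ or Flt3+ cells. The 19 calls of HFD over CD in gates ranged from 14 to 20, except for 12 after thinning. Gates were then applied again to fewer cells. Of the 19, 8 were kept after thinning and 13 with exclusive gates. With exclusive gates, Maf turned to 0.29 in CD Folr2+Lyve1- cells over outside and to 0.38 for HFD over CD in Ccr2+ cells, and Irf8, Mef2c and Runx1 in HFD Ccr2+ cells over outside to 0.63, 0.0784 and 0.15. After thinning, HFD over CD turned to 0.0740 for Maf in Timd4+ cells, 0.13 for Mef2c in Lyve1+ cells and 0.0865 for Maf in Lyz1-high cells (4 and 8 UMIs), and Maf in CD Folr2+Lyve1- cells over outside to 0.23. The cause was not tested. Cebpb kept its direction for HFD over CD in each of the 7 gates under each alternative. The Plac8+ and the Ccl17+ or Flt3+ gates held few cells.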
